A study of Mus musculus with 12 samples.

Results

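The collagen and laminin chain genes of the mouse were followed through 12 liver transcriptomes. Members were the protein-coding genes whose symbols have the form Col, number, a, number, or Lam with a, b or c and a digit, and the deposited tables held 55 of them among 55487 genes, 44 for collagen chains and 11 for laminin chains. The livers came from male mice aged 16 to 18 months, and all animals carried floxed Foxo3 alleles. Controls had no Cre. Knockouts also carried Cre under the albumin promoter, which is active in hepatocytes. Their labels name a hepatocyte-specific Foxo3 knockout, and Foxo3 in the other liver cell types was not measured apart. Each genotype was sampled fed, under a diet given ad libitum, and after an overnight fast, with 3 animals in each of the 4 groups. RNA was taken from frozen whole liver, so in these bulk samples fewer cells of a type and less RNA per cell cannot be told apart.

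Collagen chains wind in threes into a triple helix. Types I, III and V form the banded fibrils of scar and portal tracts, type IV the sheet of basement membranes, type VI beaded filaments, and the fibril-associated types decorate fibril surfaces. Laminins are crosses of 1 alpha, 1 beta and 1 gamma chain that seed basement membranes and bind integrins. In healthy liver most fibrillar collagen is made by stellate cells and portal fibroblasts, the sinusoids lack a continuous basement membrane, and hepatocytes are the main source of type XVIII collagen, whose C-terminal piece is endostatin.

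The promoters of 2 members are shown because Col3a1 was among the members raised most in a single library and Lamb3 had the largest called rise with fasting. The 250 bases before the RefSeq start of Col3a1 lie at chr1:45311288-45311537 (GRCm38, the mm10 assembly, plus strand). RefSeq gave 2 windows for Lamb3, and the one with the lower coordinate is shown. It lies inside the annotated span of the gene, which starts at 193207699. Of this Lamb3 window, chr1:193301744-193301992 on the plus strand, the last base was left out because the GENCODE annotation places it in an exon. Capitals mark a TATAAA match, the only hit among 4 motifs searched on both strands: the TATA box letters TATAAA, the CCAAT box, the GC box GGGCGG and the FoxO core GTAAACA.

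Col3a1: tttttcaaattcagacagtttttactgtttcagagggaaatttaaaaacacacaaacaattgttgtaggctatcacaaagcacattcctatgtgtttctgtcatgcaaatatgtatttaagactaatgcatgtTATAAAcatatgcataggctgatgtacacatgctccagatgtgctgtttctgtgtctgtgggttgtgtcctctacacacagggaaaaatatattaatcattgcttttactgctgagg
Lamb3: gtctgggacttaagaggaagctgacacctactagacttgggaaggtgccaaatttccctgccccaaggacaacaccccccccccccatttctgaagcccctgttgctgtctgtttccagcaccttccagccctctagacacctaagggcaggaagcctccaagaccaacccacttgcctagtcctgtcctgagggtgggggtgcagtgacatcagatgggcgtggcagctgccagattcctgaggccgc

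The TATAAA match of Col3a1 starts 117 bases before the gene start, and TATAAA occurs in 12.4% of 32851 RefSeq windows of this length. Neither of the 2 Lamb3 windows held any of the 4 motifs. The set of RefSeq windows searched here covered 40 of the 55 members. The FoxO core was found in 1 of these 40, Col6a1, against 3.17% of all windows. TATAAA was found for 5 of the 40 members (12.4% of all windows), CCAAT for 14 (33.8%) and GGGCGG for 23 (32.7%). A member was counted if any of its windows matched, and some members had 2. The percentages are per single window, so the units differ.

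Library totals ranged from 17520058 to 22414976 counts. Counts scaled to library size with trimmed mean of M values (TMM) factors, given as CPM, were used to compare a gene between libraries. TPM values, which correct for gene length, were used to compare genes. Sums over several genes are also in TPM, which carries no TMM factor. Of the 55 members, 38 passed the filter on low counts and entered the tests, 28 collagens and 10 laminins. The other 17 stayed below 1 CPM in every library. Of these, 14 had at least 1 count, and Col11a1, Col19a1 and Col26a1 had 0 in all 12 libraries. Foxo3 read 38.1 to 50.4 CPM in controls and 46.6 to 62.2 CPM in knockouts. A gene-level count does not show whether the floxed exons were lost, so it does not check the genotype labels, and knockout below means a library so labelled.

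One library stood apart. The third fed control had the highest level of 21 of the 38 tested members (55.3%), whereas it held the highest level of 18.2% of all 15862 genes tested. It was at least 2-fold above the mean of the other two fed controls in 15 of 38 members, against 7.82% of all tested genes. The first fed knockout was highest for 8 members (21.1%, all genes 9.94%), and the third fasted knockout was lowest for 12 (31.6%, all genes 12.4%). Results that rest on the third fed control are therefore given with and without it.

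**Figure D1:**
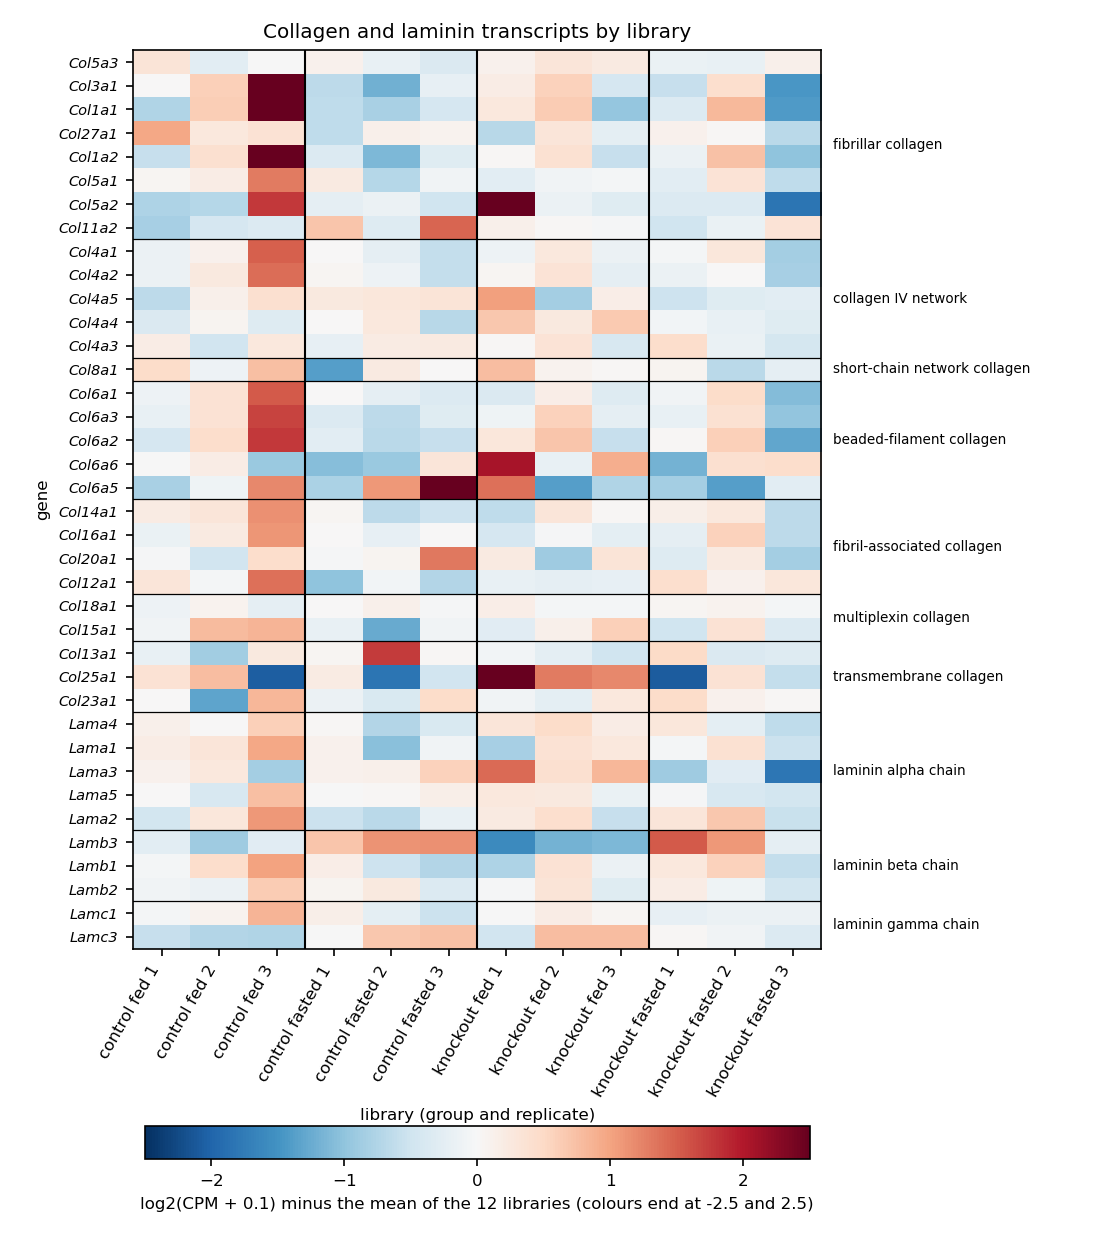
Heat map of the 38 tested members (rows, ordered by chain class) in the 12 libraries (columns, by group and replicate), with colour for the log2(CPM + 0.1) of a gene minus its mean over the 12 libraries. The third fed control lies above the other two fed controls, by their mean log2 value, in 30 of 38 rows.

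In the third fed control, markers of several other cell types had a higher summed TPM than in the 11 other libraries. The 12 stellate cell markers (among them Lrat, Des and Reln) summed to 382 TPM, against 123 to 284 TPM, and 11 of the 12 were above the other two fed controls. The 7 macrophage markers summed to 317 TPM against 51.4 to 102 TPM, and all 7 had their highest level there. Cholangiocyte markers summed to 242 TPM against 30.1 to 78.5 TPM, of which Spp1, also made by macrophages and counted in both lists, gave 232 TPM, while Krt7 and Cftr were at 0.37 and 0.14 TPM. The 8 sinusoidal endothelial markers summed to 232.5 TPM against 108 to 174 TPM, and the 10 portal fibroblast markers to 138 TPM against 58.2 to 123 TPM. The mesothelial markers were low everywhere, but their sum was also highest in the third fed control (5.9 TPM, against 0.9 to 3.1). Kupffer cell markers (567 TPM, against 233 to 641) lay within the range of the other libraries. So did the hepatocyte markers (86969 TPM, against 76627 to 123317) and those of smooth muscle (24.8 TPM, against 7.4 to 32.1). Within its own group, however, the hepatocyte sum was the lowest, below 113798 and 123317 TPM in the first and second fed controls. Of the 6 hepatocyte markers, 0 were above those libraries. The Kupffer cell and smooth muscle sums were the highest of the group, against 349 and 238 TPM and against 13.0 and 17.4 TPM. No marker of these lists was at 0 in all libraries. These sums are in TPM, which carries no TMM factor. Col18a1 had its lowest CPM in the third fed control, 758, but 312 TPM there, above 275 and 309 TPM in the other fed controls. Whether each sum would also be highest on the CPM scale was not tested. The part of these cell types in the collagen and laminin levels was not tested.

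**Figure D2:**
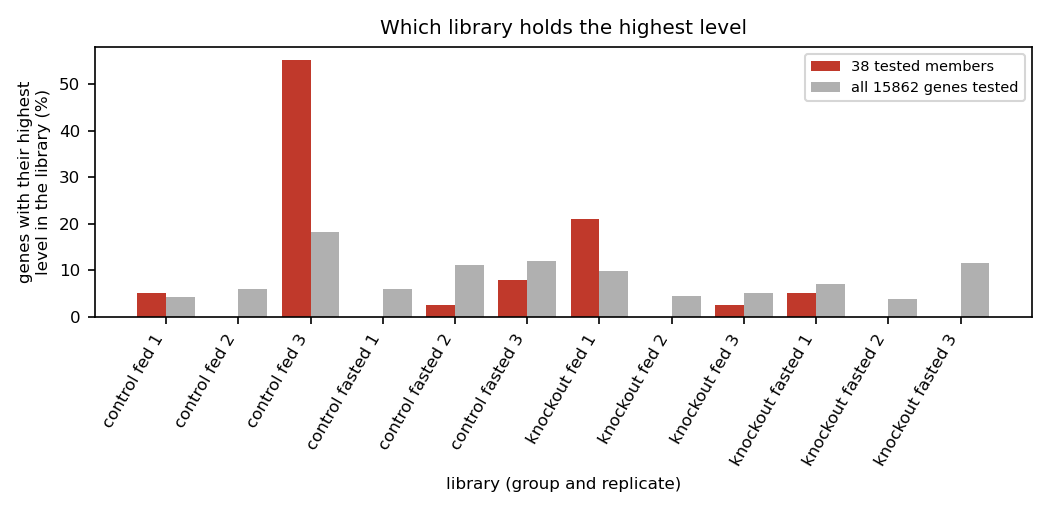
Bars give, for each library, the percentage of genes whose highest CPM over the 12 libraries was in that library, for the 38 tested members (red) and all 15862 tested genes (grey). The third fed control held 55.3% of the members against 18.2% of all genes, and 5 libraries held 0 members.

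Between 0 and 2 members passed the test in each comparison. Each gene was tested by edgeR's quasi-likelihood method, and a gene was called at a Benjamini-Hochberg adjusted p under 0.05. Fasting in controls called 1 of 38 members, the laminin gamma chain Lamc3, which rose, where 4.14% of all tested genes were called. Fasting in knockouts called 2 of 38, Lamb3, which rose, and Lama3, which fell, where 2.48% of all genes were called. Knockout against control called 0 of 38 in fed livers (0% of all genes), 0 in fasted livers (0.0315%) and 0 for the mean of both feeding states (0.0126%), and the interaction of genotype and fasting called 0 (0.0063%). At an unadjusted p under 0.05, edgeR counted 15 members for fasting in controls (19.4% of all genes) and 5 in knockouts (14.6%). For knockout against control it counted 7 in fed livers (6.12%), 3 in fasted livers (9.01%) and 0 for the mean (7.91%), and for the interaction 4 (7.19%). DESeq2 called 6 members for fasting in controls (7.52% of all genes), Lamb3 and Lamc3 higher and Col3a1, Col12a1, Col14a1 and Col6a3 lower. It called Lamb3 and Lama3 for fasting in knockouts (4.91%) and Lama3 and Lamc3 for the interaction (0.299%). For knockout against control it called 0 in fed livers (1.11%), where it gave an adjusted p to 2 members only, 0 in fasted livers (0.216%) and 0 for the mean (0.296%).

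Type XVIII collagen made up most of the family's transcripts. Col18a1 averaged 310.5 TPM, from 275 to 333 TPM over the 12 libraries, and was followed by Col14a1 at 16.7 TPM, Col5a3 at 15.2 TPM and Col4a1 at 10.3 TPM. These 4 members were the ones at 10 TPM or more on average, and 24 of 55 reached 1 TPM. Col18a1 gave 70.1% to 80.6% of the summed member TPM in 11 libraries and 50.3% in the third fed control. There the sum was 620 TPM, against 357 to 458 TPM elsewhere, and without Col18a1 it was 308 TPM, against 69.0 to 129.5 TPM.

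**Figure D3:**
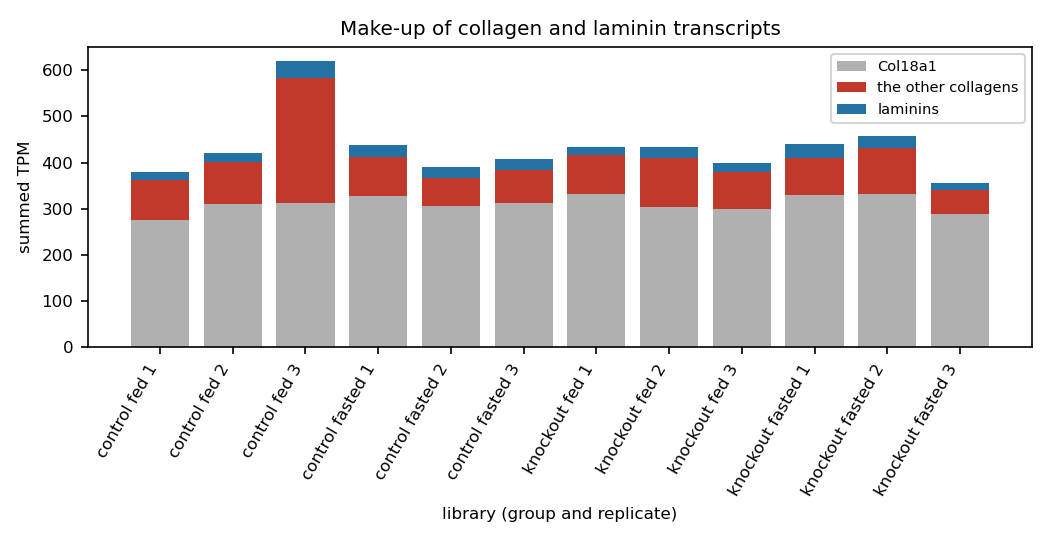
Stacked bars give the summed TPM of Col18a1 (grey), the other 43 collagens (red) and the 11 laminins (blue) in each library. The red part is 272 TPM in the third fed control and 53.5 to 106 TPM in the other 11 libraries, while the grey part stays between 275 and 333 TPM.

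Col18a1 read 806, 937 and 758 CPM in fed controls, 890.3, 957 and 861 in fasted controls, 993, 850.3 and 852 in fed knockouts and 908, 944 and 856 in fasted knockouts. The 4 groups overlapped, and the coefficient of variation over all 12 libraries was 7.58%. Fasting in controls gave a log2 difference of 0.12 with a standard error (SE) of 0.13 and an adjusted p of 0.67 by edgeR. Col15a1, the other multiplexin and a component of vessel and muscle basement membranes, read 8.03, 14.8 and 15.4 CPM in fed controls, 7.46, 3.51 and 8.06 in fasted controls, 7.004, 9.28 and 12.97 in fed knockouts and 5.97, 10.9 and 6.74 in fasted knockouts. Fed controls 2 and 3 were the highest of the 12 libraries.

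Type I and type III chains, the main fibrillar collagens of scar, were highest by far in 1 library. Col3a1, the chain of type III collagen, read 23.1, 34.6 and 153 CPM in fed controls, 14.5, 9.90 and 19.998 in fasted controls, 26.1, 34.5 and 17.1 in fed knockouts and 15.3, 30.9 and 8.29 in fasted knockouts. The third fed control was 4.42-fold above the next highest library, and all fasted controls were below all fed controls. Col1a1, an alpha chain of type I collagen, read 5.94, 15.4 and 82.4 CPM in fed controls, 6.38, 5.66 and 7.43 in fasted controls, 12.02, 15.7 and 5.11 in fed knockouts and 7.92, 17.6 and 3.69 in fasted knockouts. Here the third fed control was 4.69-fold above the next, and the remaining libraries of the 4 groups overlapped. Its partner chain Col1a2 had 73.1 CPM in the third fed control and 5.54 to 20.4 CPM in the others. The Col1a1 to Col1a2 ratio in TPM stayed between 1.15 and 2.13 over the 12 libraries, so both chains of the type I trimer were high in the same library.

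Fasted controls were lower than fed controls by a log2 difference of -2.41 (SE 0.95) for Col1a1, -1.96 (SE 0.79) for Col1a2 and -2.24 (SE 0.77) for Col3a1, with edgeR adjusted p of 0.21, 0.22 and 0.15. None of the 3 was called by edgeR, whereas DESeq2 called Col3a1 (adjusted p 0.034). Without the third fed control these log2 differences were -0.72, -0.55 and -0.96, with edgeR adjusted p of 0.66, 0.66 and 0.43. DESeq2 was run on all 12 libraries only, so its calls were not tested without that library. Knockout against control in fed livers gave -1.66 (SE 0.92) for Col1a1, with an edgeR adjusted p of 0.84, and 0.022 without that library. For Col3a1 the values were -1.44 (SE 0.74), adjusted p 0.82 by edgeR, and -0.17 without it.

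Col5a3, a minor fibril chain, did not share this pattern. It read 51.9, 34.4 and 40.997 CPM in fed controls, 44.9, 36.5 and 32.2 in fasted controls, 44.6, 51.3 and 48.4 in fed knockouts and 36.8, 36.6 and 45.1 in fasted knockouts, and its highest library was the first fed control. Col27a1, a fibrillar collagen known from cartilage, read 58.2, 35.6 and 38.001 CPM in fed controls, 19.1, 32.5 and 31.5 in fasted controls, 18.3, 36.4 and 25.1 in fed knockouts and 31.8, 30.4 and 18.7 in fasted knockouts. The first fed control was again the highest, all fed controls were above all fasted controls, and the lowest library was the first fed knockout. Col5a2, a chain of type V collagen, had 34.6 CPM in the first fed knockout, 10.1 CPM in the third fed control and 0.75 to 2.60 CPM in the other 10 libraries. Fasting in knockouts gave Col5a2 a log2 difference of -2.89 (SE 1.17) and an edgeR adjusted p of 0.29, and -0.46 without the first fed knockout. Col11a2, a type XI chain, was at 0.33 to 0.50 CPM in fed controls and 0.51 to 1.98 CPM in fasted controls, with a log2 difference of 1.49 (SE 0.47) and an edgeR adjusted p of 0.098. It was 0.93 without the third fasted control, and without the second it was 1.84 and was called (edgeR adjusted p 0.047).

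The first fed knockout also had the highest sum of smooth muscle markers, 32.1 TPM against 7.4 to 24.8 TPM, with Acta2 at 8.29 TPM and Myh11 at 3.47 TPM. Its stellate cell markers were the lowest, at 123 TPM against 149 to 382 TPM, with Lrat at 2.67 TPM. Whether these cells had a part in its high Col5a2 was not tested.

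The basement membrane chains Col4a1 and Col4a2 form 1 trimer and had nearly the same profile. They lie head to head on chromosome 8 on opposite strands, and their annotated exons share 22 bases, from 11312805 to 11312826. Col4a1 read 25.03, 29.9 and 78.4 CPM in fed controls, 27.98, 23.6 and 18.4 in fasted controls, 25.5, 33.2 and 25.1 in fed knockouts and 26.8, 33.7 and 15.3 in fasted knockouts. Col4a2 read 16.4, 21.5 and 47.8 CPM in fed controls, 18.7, 16.6 and 12.1 in fasted controls, 18.8, 23.2 and 15.6 in fed knockouts and 16.5, 18.3 and 10.1 in fasted knockouts. Both were highest in the third fed control and lowest in the third fasted knockout, and the Col4a1 to Col4a2 ratio in TPM stayed between 1.20 and 1.63. The chains of specialised basement membranes were low, with Col4a5, Col4a4 and Col4a3 at 0.47, 0.21 and 0.21 TPM on average and Col4a6 at 0.04 TPM.

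Of type VI collagen, the beaded filament of interstitial matrix, the chains Col6a1, Col6a2 and Col6a3 were highest in the third fed control, as were the type I chains. Col6a1 read 8.501, 11.9 and 26.8 CPM in fed controls, 9.29, 7.86 and 7.30 in fasted controls, 7.21, 10.4 and 7.32 in fed knockouts and 8.71, 12.8 and 4.32 in fasted knockouts. Col6a2 and Col6a3, its partner chains, reached 18.6 and 29.5 CPM in the third fed control, against 2.13 to 8.77 and 4.55 to 13.6 CPM elsewhere. The low Col6a6 was highest in the first fed knockout, at 2.51 CPM, and had 0.227 CPM in the third fed control. Col6a5 was highest in the third fasted control, at 1.56 CPM, and had 0.499 CPM in the third fed control. Col6a3 gave a log2 difference of -1.28 (SE 0.48) for fasting in controls, with an adjusted p of 0.18 by edgeR and 0.039 by DESeq2. Without the third fed control edgeR gave -0.54, with an adjusted p of 0.50.

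The fibril-associated Col14a1, which binds fibril surfaces, was the second most abundant member. It read 49.9, 53.97 and 95.98 CPM in fed controls, 45.3, 27.5 and 30.5 in fasted controls, 28.1, 53.8 and 44.4 in fed knockouts and 48.3, 52.5 and 27.6 in fasted knockouts. The third fed control was the highest library, and all fed controls lay above all fasted controls. Fasting in controls gave -0.95 (SE 0.35) on the log2 scale with an edgeR adjusted p of 0.17 and a DESeq2 adjusted p of 0.036. Without the third fed control edgeR gave -0.60, with an adjusted p of 0.43.

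Col12a1, another fibril-associated chain, found in dense connective tissue, read 2.94, 2.29 and 6.36 CPM in fed controls, 1.14, 2.26 and 1.39 in fasted controls, 2.09, 2.02 and 2.05 in fed knockouts and 3.23, 2.56 and 2.94 in fasted knockouts. All fasted controls were below all fed controls, and all fasted knockouts were above all fed knockouts. Fasting gave a log2 difference of -1.28 (SE 0.36) in controls and 0.50 (SE 0.36) in knockouts, with edgeR adjusted p of 0.069 and 0.58, and DESeq2 called the fall in controls (adjusted p 0.018). The interaction was 1.78 (SE 0.51) with an edgeR adjusted p of 0.55, so the difference between genotypes did not pass the test. Without the third fed control, fasting in controls gave -0.73, with an edgeR adjusted p of 0.24, and the interaction was 1.23.

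Of the transmembrane collagens, Col13a1, found at cell adhesion sites, had 8.32 CPM in the second fasted control and 1.26 to 3.41 CPM elsewhere. Col25a1, best known from neurons, had 11.03, 3.71 and 3.45 CPM in fed knockouts and 0.27 to 2.53 CPM in the other 9 libraries. Fed knockouts did not overlap the other groups, but knockout against control in fed livers gave a log2 difference of 1.95 (SE 0.81) with an edgeR adjusted p of 0.81. Fasting in knockouts gave -2.56 (SE 0.85) with an edgeR adjusted p of 0.18. Neither was called. Without the first fed knockout these differences were 1.19 and -1.79.

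Laminins summed to 15.5 to 29.6 TPM in 11 libraries and 35.8 TPM in the third fed control. Lamc1, the gamma chain of most laminins, was the highest laminin at 6.42 TPM on average, followed by Lamb3 at 5.36, Lamb1 and Lamb2 at 2.52 and 2.45, and Lamc3 at 1.61 TPM. Every alpha chain was lower, from 1.36 TPM for Lama4 to 0.23 TPM for Lama2. Lamc1 read 20.04, 21.9 and 37.4 CPM in fed controls, 22.9, 17.4 and 14.3 in fasted controls, 20.5, 23.6 and 21.4 in fed knockouts and 17.8, 18.7 and 18.8 in fasted knockouts. Its highest library was the third fed control, and all fasted knockouts were below all fed knockouts.

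Lamb3 encodes the beta 3 chain, which pairs with alpha 3 in the laminin of epithelia such as skin. It read 9.36, 5.99 and 9.13 CPM in fed controls, 18.1, 24.5 and 24.9 in fasted controls, 3.66, 4.89 and 5.06 in fed knockouts and 32.5, 23.9 and 9.50 in fasted knockouts. All fasted livers were above all fed livers of the same genotype. The control means were 8.16 ± 1.88 CPM fed and 22.5 ± 3.80 CPM fasted (SD, n = 3), and the knockout means 4.54 ± 0.765 and 21.96 ± 11.6 CPM. The rise in knockouts was 2.28 on the log2 scale (SE 0.39), with an edgeR adjusted p of 0.016. In controls it was 1.46 (SE 0.37) with an edgeR adjusted p of 0.055, just outside the threshold, and DESeq2 called it (adjusted p 0.00088). Of the 38 members, Lamb3 was the one whose fasted libraries were all higher in both genotypes, a pattern found in 3.77% of all genes, and 0 members had the reverse (3.46% of all genes).

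A difference between the fasting responses of Lamb3 in the 2 genotypes did not pass the test, with an interaction of 0.82 (SE 0.53) and an edgeR adjusted p of 0.82. Without the first or the second fed knockout the adjusted p in knockouts was 0.092 and 0.057. As a share of the summed beta chain TPM, Lamb3 was 34.3% ± 8.44 in fed and 66.2% ± 8.61 in fasted controls, and 27.6% ± 4.30 and 60.8% ± 8.35 in fed and fasted knockouts (SD, n = 3). The small gene G0s2, a lipolysis inhibitor, lies on the opposite strand inside the annotated span of Lamb3 (chromosome 1, 193207699 to 193343878) and shares 0 exon bases with it. It read 146, 40.4 and 71.7 CPM in fed controls, 80.6, 149 and 147 in fasted controls, 34.8, 72.0 and 83.3 in fed knockouts and 73.9, 72.4 and 41.4 in fasted knockouts.

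Lama3 encodes the alpha 3 chain of the same trimer. It read 3.75, 4.16 and 1.86 CPM in fed controls, 3.71, 3.79 and 5.23 in fasted controls, 9.41, 4.61 and 6.19 in fed knockouts and 1.81, 2.83 and 0.921 in fasted knockouts. All fasted knockouts were below all fed knockouts, with means of 1.86 ± 0.955 and 6.74 ± 2.44 CPM (SD, n = 3). The fall was -1.84 on the log2 scale (SE 0.40) with an edgeR adjusted p of 0.033, while fasting in controls gave overlapping groups. Leaving out the first fed knockout moved the adjusted p to 0.16, the third fed knockout to 0.076, the first fasted knockout to 0.12 and the third fasted knockout to 0.098.

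Knockouts were above controls for Lama3 in each fed library and below them in each fasted library. The log2 differences were 1.05 (SE 0.39) fed and -1.18 (SE 0.40) fasted, with edgeR adjusted p of 0.81 and 0.52. The interaction was -2.23 (SE 0.56), with an edgeR adjusted p of 0.52 and a DESeq2 adjusted p of 0.041. This pair of opposite gaps without overlap occurred in 0.397% of all genes. The Lamb3 to Lama3 ratio in TPM was 0.63 to 1.72 in fed knockouts, 13.7 to 29.1 in fasted knockouts, 2.34 to 7.97 in fed controls and 7.72 to 10.5 in fasted controls.

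Lamc3 encodes a gamma chain known from peripheral nerve, retina and vessels. It read 2.42, 2.15 and 2.13 CPM in fed controls, 3.66, 5.88 and 6.16 in fasted controls, 2.61, 6.30 and 6.30 in fed knockouts and 3.76, 3.46 and 2.88 in fasted knockouts. All fasted controls were above all fed controls, with means of 5.23 ± 1.37 and 2.24 ± 0.162 CPM (SD, n = 3). The rise was 1.23 on the log2 scale (SE 0.31), with an edgeR adjusted p of 0.046. The adjusted p lay between 0.0068 and 0.16 over 25 alternatives, of which 9 kept the call. It was lost when any 1 library other than the first fasted control or the first fed knockout was left out, as in the absence of the third fed control (0.10).

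In knockouts fasting gave Lamc3 a log2 difference of -0.58 (SE 0.31) with an edgeR adjusted p of 0.42, and the groups overlapped. Fed knockouts were all above fed controls, with a log2 difference of 1.18 (SE 0.31) and an edgeR adjusted p of 0.68. Its interaction was -1.81 (SE 0.44), with an adjusted p of 0.48 by edgeR and 0.047 by DESeq2. An antisense gene, Gm13441, shares 382 bases (6.27%) of the Lamc3 exons, and Gm29200 shares 197 bases (1.83%) of those of Lama3. Because the strand setting of the counting is not given in the sources used here, reads of such pairs cannot be assigned.

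**Figure D4:**
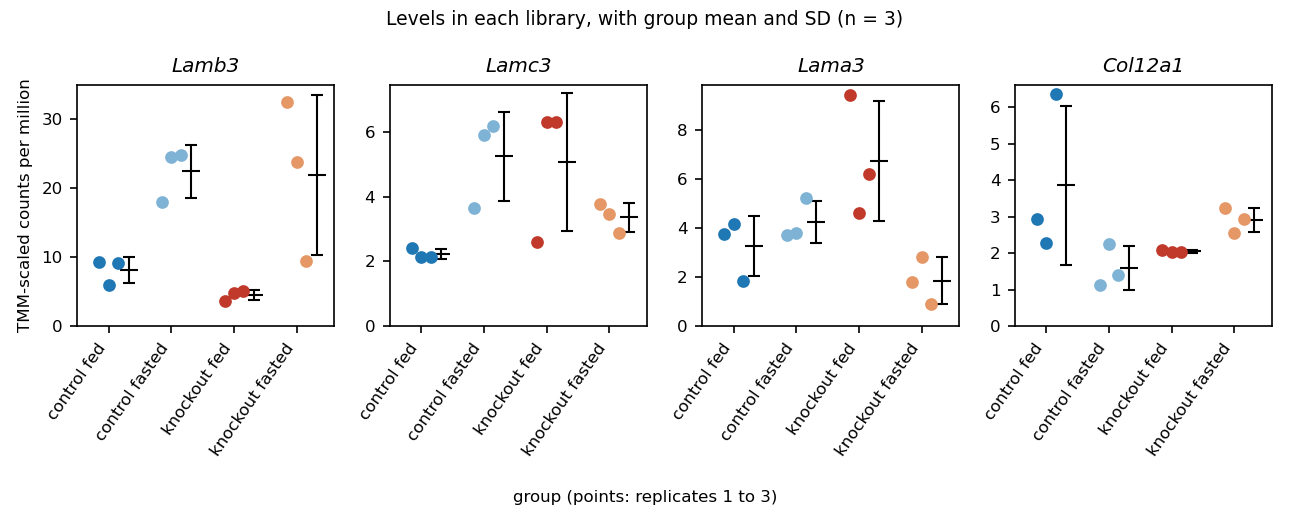
CPM of Lamb3, Lamc3, Lama3 and Col12a1 in each library (points) by group, with the group mean and SD (black, n = 3), on axes that start at 0. Lamb3 is higher in all fasted than in all fed livers of each genotype, Lama3 is lower in all fasted than in all fed knockouts, and Lamc3 and Col12a1 separate fed from fasted controls in opposite directions.

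Fasting in controls gave more negative than positive differences. Of 38 members, 27 had a negative and 11 a positive log2 difference, with a median of -0.61, beside 0.00 for all tested genes. At an unadjusted p under 0.05, edgeR counted 11 members lower (9.81% of all genes) and 4 higher (9.61%). The fasted libraries lay below all fed controls for 6 members (10.9% of all genes) and above them for 3 (11.5%). Without the third fed control, 23 were negative and 15 positive, the median was -0.25, and 4 members changed sign.

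**Figure D5:**
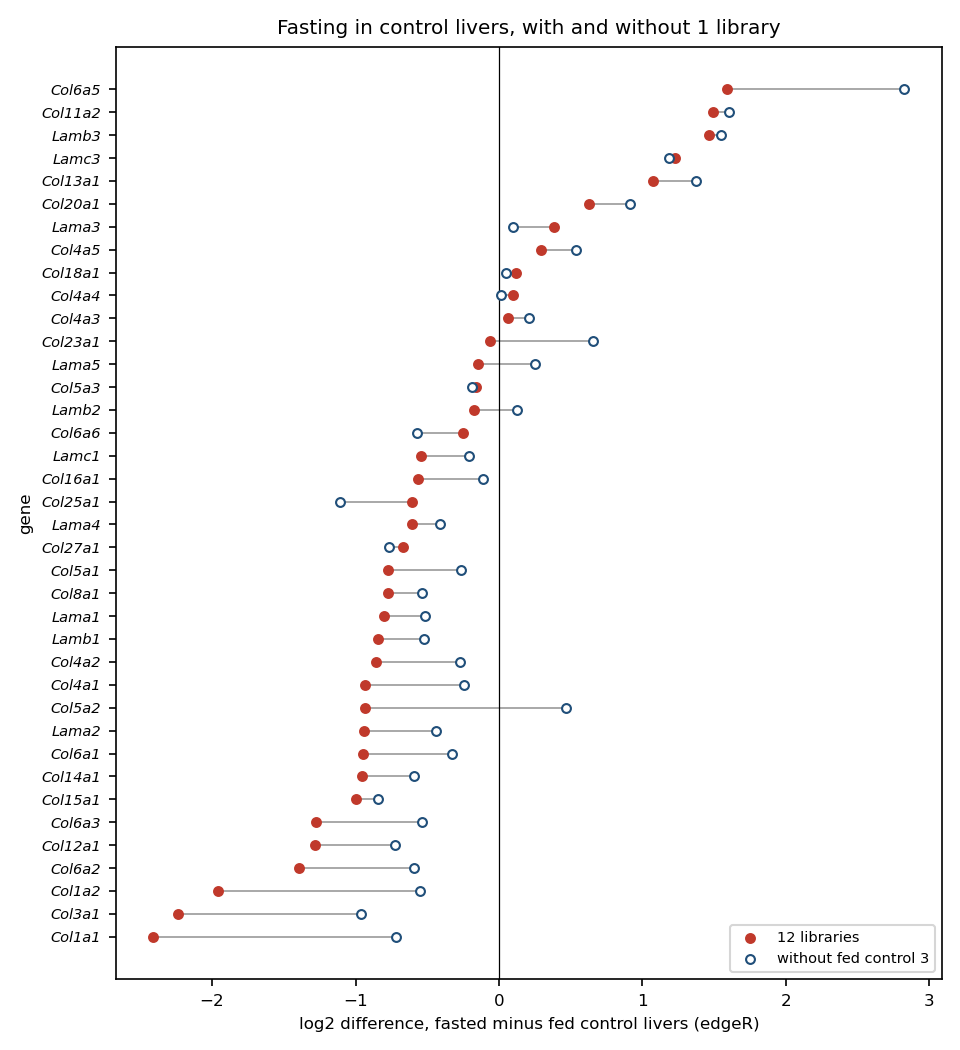
Fitted log2 differences between fasted and fed controls for the 38 tested members (rows, sorted), from all 12 libraries (red) and without the third fed control (open blue). Col1a1, Col3a1 and Col1a2 move from -2.41, -2.24 and -1.96 to -0.72, -0.96 and -0.55, and Lamb3 and Lamc3 move little.

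Fasting in knockouts gave 25 negative and 13 positive members and a median of -0.20, beside -0.01 for all genes and 0.02 without the third fasted knockout. At an unadjusted p under 0.05, edgeR counted 4 lower (7.48% of all genes) and 1 higher (7.16%), and 5 members were lower without overlap (11.8%) and 2 higher (11.5%). Knockout against control had a median of -0.22 in fed livers, -0.01 over all genes, and 0.12 without the third fed control, where 15 of 38 members changed sign. Groups did not overlap for 5 members higher (6.3% of all genes) and 3 lower (5.99%) in fed knockouts, and for 1 higher (6.82%) and 3 lower (7.2%) in fasted knockouts. The genotypes separated in the same direction in both feeding states for 0 members higher (0.567% of all genes) and 0 lower (0.366%). The median in fasted livers was 0.02, beside -0.01 over all genes. The median interaction was 0.31 over members, -0.01 over all genes, and -0.043 without the third fed control.

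Genes that make, cross-link, degrade or bind these chains were read from lists chosen with earlier results of these data known. Of 28 tested genes for collagen processing and cross-linking, fasting in controls called 1 higher and 0 lower, where 4.14% of all tested genes were called. The higher gene was Bmp1, the protease that removes procollagen ends. It rose by 0.78 on the log2 scale (SE 0.13) with an edgeR adjusted p of 0.0077, and kept the call when each library in turn was left out. In knockouts fasting called 0 higher and 1 lower, where 2.48% of all tested genes were called. The lower gene was Ppib, an endoplasmic prolyl isomerase, at -0.82 (SE 0.16) with an edgeR adjusted p of 0.020. The edgeR adjusted p reached 0.11 without the first fed knockout. The call was also lost without the second fed, the first fasted or the third fasted knockout. The most abundant of the list was P4hb, the prolyl hydroxylase beta subunit. Without TMM scaling it had 1471.6 TPM in the third fed control and 1048 to 1316 TPM elsewhere.

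Basement membrane and matrix partners held the one gene of these lists called in both genotypes. Nid2, a nidogen that links laminin to type IV collagen, read 8.98, 8.65 and 9.44 CPM in fed controls and 5.34, 4.70 and 3.59 in fasted controls. In knockouts it was at 11.66, 11.5 and 10.2 CPM fed and 4.91, 5.17 and 7.43 fasted. Fasted livers were below fed livers of both genotypes with no overlap, and Nid2 was not highest in the third fed control. The edgeR log2 differences were -0.99 (SE 0.19, adjusted p 0.012) in controls and -0.93 (SE 0.19, adjusted p 0.021) in knockouts. The call in controls held without any 1 library, and that in knockouts was lost (adjusted p up to 0.10 by edgeR) without the first or second fed or the first or second fasted knockout. Nid2 was 1 of 18 tested partners, and 0 were called higher. Fasting called 4.14% of all tested genes in controls and 2.48% in knockouts.

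Fasting in controls called 4.14% of all tested genes. Among 11 tested receptors it called 0 higher and 1 lower, the collagen-binding integrin chain Itga1, at -0.39 (SE 0.10, edgeR adjusted p 0.048). Among 13 tested genes of transforming growth factor beta signalling and its targets it called 0 higher and 1 lower, the receptor Tgfbr2, at -0.97 (SE 0.24, edgeR adjusted p 0.048). Tgfbr2 had 83.9 CPM in the third fed control, against 21.4 to 53.3 CPM elsewhere, and gave -0.65 without it (adjusted p 0.092 by edgeR). The Itga1 call was kept in 1 and the Tgfbr2 call in 3 of the 12 fits that left out 1 library. Of 12 tested matrix proteases and their inhibitors 0 were called in either direction in any comparison (0% to 4.14% of all genes). In knockouts fasting called 0 of the receptors and 0 of the growth factor genes (2.48% of all genes). Knockout against control and the interaction called 0 genes in all 5 lists (0% to 0.0315% of all genes).

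Of 58 tested markers in the 9 cell type lists, edgeR called 2 (3.45%), both lower with fasting in knockouts, where 2.48% of all tested genes were called. In the other comparisons it called 0, fasting in controls included, where 4.14% of all genes were called. Myl9, a smooth muscle myosin light chain, gave -2.16 (SE 0.51, edgeR adjusted p 0.046), and Sox9, a bile duct factor, -1.20 (SE 0.28, edgeR adjusted p 0.038). Both had their highest level in the first fed knockout, at 3.92 and 9.56 CPM, and without it gave -1.61 and -0.89, with edgeR adjusted p of 0.22 and 0.19. Their calls were kept in 4 and 6 of the 12 fits that left out 1 library. That is the comparison in which Lama3 fell and Lamb3 rose, and the part of these cells in those changes was not tested.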

How the data were processed

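Liver RNA of 12 mice was sequenced as strand-specific poly(A) libraries, per the labels' protocols. Per the submitters' processing notes, the tools named were HISAT2 2.1.0, featureCounts 1.6.3, DESeq2 1.24.0, Trimmomatic 0.38 and bcl2fastq 2.19, with build mm10. How strand and reads with several matches were counted, and from which annotation, is not given in the sources used here. Both deposited tables come from the authors: counts per gene, not normalized, and TPM, which equals those counts over 1 length per gene (largest relative deviation 2.1e-08 over 10524 genes).

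The counts were tested with edgeR 4.0.16 in R 4.3.3 (TMM factors from 0.923 to 1.12, filterByExpr, robust quasi-likelihood F test, 2-sided, Benjamini-Hochberg over 15862 genes). All 12 libraries entered 1 fit of 4 group means and 6 contrasts. On counts simulated for the fasting contrast in controls (15656 genes), the test recovered 63% of 2-fold and 88% of 4-fold changes with 8 false calls. Changed genes were drawn above a floor of expected counts, and no simulated library stood apart. Recovery for low-count members, or with a library like the third fed control, was therefore not measured. Alternatives were RLE and upper-quartile factors, DESeq2 1.42.0, no filter, at least 1 CPM in 3 libraries, limma 3.58.1 with voom (with and without quality weights) or on log2(TPM + 1) and log2(TPM + 0.1) where 3 libraries reached 0.5 TPM, protein-coding genes only, only the groups compared, a replicate block and leaving out each library. Leaving out both the third fed control and the first fed knockout was added after seeing the data.

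The members and the lists were chosen with earlier results of these data known. Any member and marker could be named, as could list genes that were called or were among the 4 most abundant of a list. Members shown with 12 values are the 12 most abundant, those called and those whose groups did not overlap in the same direction in 2 comparisons, with Col12a1 added because its groups separated in opposite directions. Nothing states that the 3 animals of a group were handled apart, so p-values measure the spread between these samples. Promoter sequences are from RefSeq on GRCm38.p6, and all 55 member spans match GENCODE M21. Protein sequences were not used here, and the values of 1 member are not reported here.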

Additional observations from a re-analysis of the deposited data

Results flagged for a closer look

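In 2 members the groups separated in opposite directions without overlap. Lama3 was higher in all fed knockouts than in all fed controls and lower in all fasted knockouts than in all fasted controls. The log2 interaction was -2.23 (SE 0.56), with an adjusted p of 0.52 by edgeR and 0.041 by DESeq2, so the difference between feeding states did not pass the edgeR test and passed that of DESeq2. Without the third fed control, whose 1.86 CPM was the lowest fed control value, knockout against control in fed livers gave 0.76.

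Col12a1 was lower in all fasted than in all fed controls and higher in all fasted than in all fed knockouts. It was also lower in all fed knockouts than in all fed controls and higher in all fasted knockouts than in all fasted controls. Both patterns have the same log2 interaction, 1.78 (SE 0.51), with an edgeR adjusted p of 0.55, and the difference was called by neither edgeR nor DESeq2. Levels of Col12a1 were 1.14 to 6.36 CPM. Without the third fed control, which held the 6.36 CPM, the log2 interaction was 1.23. Knockout against control in fed livers then gave -0.36. The opposite patterns of fasting occurred in 0.265% of all 15862 tested genes and those of genotype in 0.391%.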

How the results depend on the processing

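The count of members called for fasting in controls, 1 in the edgeR fit, was 2 with no filter on low counts, 6 with DESeq2 and 0 with limma-voom, with limma on log2(TPM + 1) or log2(TPM + 0.1) and with a replicate block. It was 0 to 1 when each library was left out. For fasting in knockouts the count of 2 became 1 with both TPM fits and with the replicate block, 0 with only the groups compared, 0 without both the third fed control and the first fed knockout, and 0 to 2 when each library was left out. The interaction count of 0 became 2 with DESeq2. Counts for knockout against control were 0 under all alternatives. The cause of these changes was not tested. The median log2 difference over members for fasting in controls, -0.61, was -0.70 to -0.25 when each library was left out and -0.25 without both libraries. For knockout against control in fed livers it was -0.45 to 0.12, and for fasting in knockouts -0.38 to 0.02, positive only without the third fasted knockout. For the interaction it was -0.043 to 0.49, and 0.69 with the filter of 1 CPM in 3 libraries, which tests 33 of the members. Col1a1 in fed knockout against control, -1.66 in the edgeR fit, was -2.16 to 0.022 when each library was left out, positive without the third fed control. Over all genes, calls ranged over the alternatives from 272 to 1170 for fasting in controls (657 in the edgeR fit), 88 to 791 for fasting in knockouts (393), 0 to 35, 1 to 41 and 1 to 46 for knockout against control fed, fasted and averaged (0, 5 and 2), and 1 to 60 for the interaction (1), with the most by DESeq2 each time.

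The labels give replicate numbers but no pairing. The deviations of same-numbered libraries correlated at -0.32 to 0.16 over 18 pairs, with 3 pairs over 0.1, so the numbers were not taken to pair the samples. With the replicate block, the calls of Lamc3 in controls and of Lama3 in knockouts were lost, and that of Lamb3 in knockouts was kept. Depth limits the 17 members that did not pass the filter on low counts. The fit with no filter tested 52 members, and recovery of differences at such low counts was not measured.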
